A study of Mus musculus with 15 samples.

Results

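The comparison described here sets cultured mouse hepatocytes that had been given differentiation medium, labelled mHep, against hepatocytes measured without expansion in culture, labelled Primary hepatocyte. It holds 8 of the 15 arrays of the series, 7 titled mHep and 1 titled Primary hepatocyte, and the members were chosen by these titles. The mHep cells were expandable hepatocytes, derived from mouse liver and kept for 21 days in culture. Mouse 129S1-No1 (strain 129S1) gave 3 mHep arrays, mouse C57B6-No1 (strain C57B6) gave 3 and mouse 129S1-No2 (strain 129S1) gave 1. The primary cells came from C57B6 mice by collagenase perfusion, and the labels do not say how many animals went into that RNA. The 7 arrays titled eHep, the same 3 mice in expansion medium, serve here only to show whether a gene moved with the medium. No age, genotype or drug is given for any group, and the reading of mHep as the cells in differentiation medium rests on the study's design text, since the labels do not spell the name out.

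Hepatocytes make most plasma proteins, detoxify drugs, build bile acids, turn ammonia into urea and store and release glucose, and they divide these tasks along the lobule from the portal vein to the central vein. Factors such as HNF4A and C/EBPα drive these genes, and growth hormone and circulating hormones tune many of them. Hepatocytes placed in culture are known to lose much of this programme and to take up features of biliary, wound-healing and migrating cells, with active YAP and TEAD signalling and a rebuilt actin cytoskeleton. Differentiation media are meant to bring the adult programme back.

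Levels are log2 signals from which the array's own 75th percentile was subtracted, and a difference is mHep minus primary on that log2 scale, so 1 unit is a doubling. A mean ± SD for mHep is over 3 mouse means, a difference is given ± SE, and a gene is called where limma's adjusted p is under 0.05 and the difference is at least 1. A gene is detected on an array where its probe was marked well above background, and where a group has no detected array the fold is a bound, written as at least N-fold, with the dim readings raised to the lowest detected signal of their array. The primary side is 1 array, so its own spread is not known and is taken to be that of the mHep mice. The p-values measure the spread between cultures of these mice and leave out the spread between primary isolations. Of the genes called lower, 262 were detected on no mHep array. For these the p-values measure the spread of dim readings near background, not of expression between cultures. Of the 649 genes called higher, 475 were not detected on the primary array. For those genes the primary level is a dim reading near background, so the fold is a bound. A p-value beside a bound comes from the readings before they were raised and does not test the bound.

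Some features of the arrays touch every result. The mHep array of 129S1-No2 has a source name that says eHep and was placed by its title. Its Alb level was 7.29, against 6.36 to 8.45 on the other mHep arrays and -1.61 ± 2.87 in eHep. The primary array was the dimmest of the 8, with a 75th percentile 1.71 to 3.21 log2 units under those of the mHep arrays, and 36.25% of its probes were detected against 48.76% to 61.85% on the mHep arrays. Its lowest detected signal lay at -2.12 on the scale used here, and those of the mHep arrays at -5.47 to -3.73, so a low gene is lost from view sooner on the primary array. The 7 hepatocyte markers were all detected on it, with a summed signal of 12.25 against 6.62 to 9.02 on the mHep arrays, and 6 of them were detected on at least 1 mHep array. The primary array shared its slide with 1 mHep array, of mouse C57B6-No1, and its scan session with 2.

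Of 14709 genes tested, 938 were lower (6.38%) and 649 higher (4.41%) in mHep than in primary hepatocytes. The count of each list below is to be read against these shares. All 1587 called genes had the same direction on the mHep array that shares slide and strain with the primary array. Both arrays were in the fit that made the calls, so this is not a separate check. The primary array lay at least 2-fold above all 7 mHep arrays for 2504 genes (17%) and at least 2-fold below all of them for 1633 (11.1%). Without 129S1-No2, the mouse whose array has the mixed label, 640 genes were lower and 370 higher, and 905 of the 1587 calls remained. Without C57B6-No1 no gene passed in limma, although 3980 genes had an unadjusted p under 0.05 (5091 in the full fit). Every called gene kept its direction, but the arrays left had also gone into the calls. The balance of calls depended on scaling. The median over all genes tested was -0.29 when each array was scaled on all probes and 0.38 when it was scaled on those seen above background throughout. The second scaling gave 725 lower and 1320 higher genes, 35.5% lower instead of 59.1%.

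**Figure D1:**
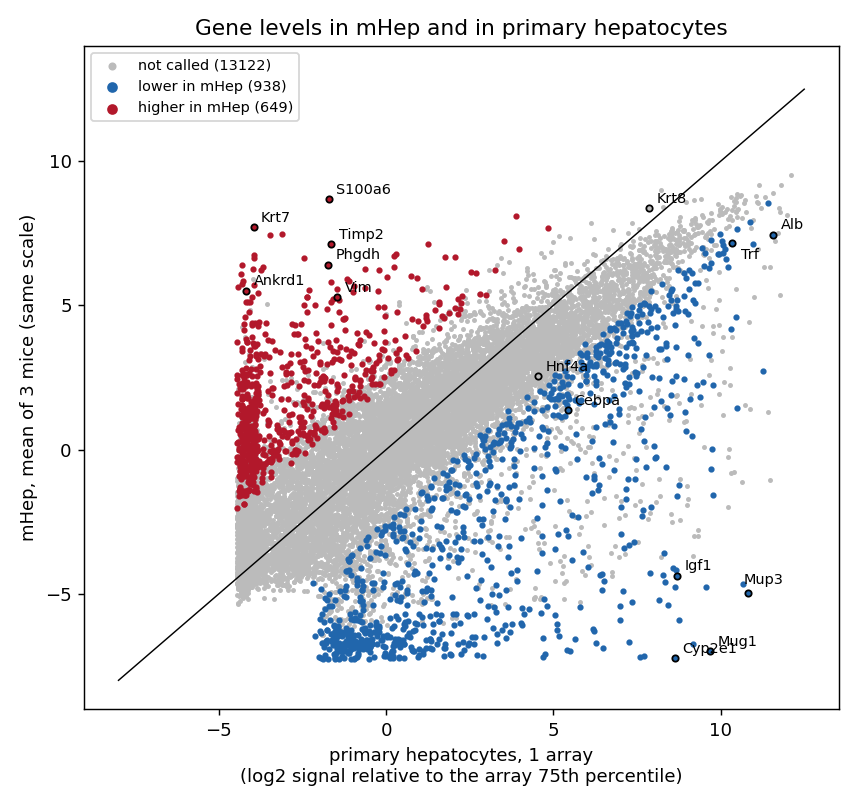
Level of each of the 14709 tested genes on the primary array (horizontal) and in mHep as the mean of 3 mice (vertical), both in log2 units above or below the array's own 75th percentile. Points are genes, blue for the 938 lower and red for the 649 higher in mHep, grey for the others, and the line marks equal levels; Krt8 lies near the line while Mup3 and Igf1 lie far under it and Krt7 far above it.

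The promoters of 1 gene that fell short and 1 that stayed on are shown because liver proteins and YAP and TEAD targets are groups the results turn on. Alb encodes serum albumin, which came back in part, and Ankrd1, a known target of YAP and TEAD, stayed high. Each run is the 250 bases upstream of the RefSeq start in GRCm38.p6, written 5′ to 3′ on the strand of the gene. Capitals mark the C/EBP motif TTNNGCAA in Alb and GGAATG, the core of the TEAD motif, in Ankrd1, each searched on both strands.
Alb, chr5:90460620-90460869, plus strand: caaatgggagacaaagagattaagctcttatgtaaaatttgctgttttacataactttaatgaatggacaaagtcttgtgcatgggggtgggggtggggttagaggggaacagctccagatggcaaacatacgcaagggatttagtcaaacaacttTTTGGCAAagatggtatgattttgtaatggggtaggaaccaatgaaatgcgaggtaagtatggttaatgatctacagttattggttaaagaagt
Ankrd1, chr19:36119845-36120094, minus strand: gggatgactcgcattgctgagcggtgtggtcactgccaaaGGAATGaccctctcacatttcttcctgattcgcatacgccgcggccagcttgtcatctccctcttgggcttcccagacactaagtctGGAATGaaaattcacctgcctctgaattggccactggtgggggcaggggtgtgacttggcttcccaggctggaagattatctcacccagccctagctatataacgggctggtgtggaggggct

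The C/EBP match began 94 bases before the start of Alb, and the TEAD core began 210 and 123 bases before the start of Ankrd1. No match overlapped one of the other motifs searched. Over all 32851 promoter windows in the RefSeq table, 9.56% held TTNNGCAA and 12.6% held GGAATG. Of the genes with an entry, 13.1% of 613 called lower and 10.3% of 478 called higher held the C/EBP motif. The TEAD core stood in 14.5% and 12.8% of the same genes, and the AP-1 motif TGANTCA in 8.48% and 6.49% of them and in 6.75% of all windows. These shares describe letters in a short window only.

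Some genes of adult liver were not detected in the differentiated cells. Of 27338 named genes, 263 (0.962%) were detected on the primary array and on no mHep array. Mug1, which encodes the protease inhibitor murinoglobulin, read 9.68 on the primary array, while its mHep readings ran from -7.70 through a median of -6.81 to -6.03, none of them detected. The gap was at least 25268-fold (adjusted p = 0.00829). The probe of Mug1 (NM_008645) lies on chromosome 6 from 121838954 to 121839013 in mm9, the build of the array files. Car3, a carbonic anhydrase of liver, fat and muscle, was at least 17905-fold lower (adjusted p = 0.00829), with 9.19 on the primary array. Another probe of Car3 read 0.97 on the primary array and was detected on 1 mHep array, with a difference of -7.44. Cyp2e1, the ethanol-oxidising cytochrome of the central vein region, read 8.64 on the primary array and -7.77, -7.27 and -6.03 as lowest, median and highest mHep reading. It was at least 12295-fold lower (adjusted p = 0.00829), and its probe (NM_021282) lies on chromosome 7 from 147959585 to 147959644. The probes used for these 3 genes were detected on no eHep array.

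Further genes of that kind were Pon1, which encodes the serum enzyme paraoxonase (at least 5980-fold), the fatty acid elongase Elovl3 (at least 4765-fold), the complement gene C8a (at least 2372-fold), the cytochrome Cyp4f15 (at least 1401-fold), the glycosyltransferase Ugt3a1 (at least 1317-fold) and Fam47e (at least 1106-fold). Their adjusted p was 0.00829 for Pon1 and 0.0115 for the others. Cyp1a2, a drug-oxidising enzyme of the central vein region, was at least 789-fold lower, and Cyp7a1, the rate-limiting enzyme of bile acid synthesis, at least 91.3-fold (adjusted p = 0.0115 for both). Another probe of Cyp7a1 was detected on 2 mHep arrays and differed by -7.16. Alas2, a haem synthesis enzyme of red cell precursors, was also detected on the primary array (6.47) and on no mHep array, at least 2730-fold (adjusted p = 0.0115). The erythroid marker Hba-a1 read 1.20 on the primary array and -4.90 ± 0.69 in mHep, and the part of red cell precursors in the Alas2 result was not tested.

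Plasma protein genes were on in mHep and fell short of primary cells. All 31 genes of the list could be tested, with a median of -4.69 against -0.29 over all genes, and 29 lay at least 2-fold under the primary array on all 7 mHep arrays. Of the 31, 3 were called lower, Alb, Serpina1c and Trf. That count was 0, with 1 gene higher, under quantile normalization and in the authors' deposited table, and 11 with normexp background. Alb ran from 6.36 through 7.47 to 8.45 on the mHep arrays and stood at 11.57 on the primary array, with no overlap. It was 17.5-fold lower (difference -4.13 ± 0.64, adjusted p = 0.0327). Its probe (NM_009654) lies on chromosome 5 from 90901598 to 90901657. Trf, the iron carrier transferrin, was 8.99-fold lower (-3.17 ± 0.60, adjusted p = 0.0469). Serpina1c, a copy of the protease inhibitor alpha-1-antitrypsin with close relatives whose RNA may reach the same probe, read 10.48 on the primary array and ranged from -1.08 to 4.17 in mHep (-9.05 ± 1.79, adjusted p = 0.0499). Ttr, the thyroxine carrier, missed the threshold (-4.69 ± 0.94, adjusted p = 0.0515) although all 7 mHep arrays, from 0.17 to 2.45, lay under the primary level of 5.68.

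Complement and coagulation genes, which feed the blood cascades, lay further down. Of 39 tested, 12 were called lower and none higher, the median was -7.08, and 37 lay under the primary array on all 7 arrays. Besides C8a, the partner chain C8b (-12.43 ± 1.15, adjusted p = 0.0122) and the lectin pathway protease Masp2 (-11.90 ± 1.90, adjusted p = 0.0345) were lower. The list was called less often without 129S1-No2 (6 genes) and more often without 129S1-No1 (33 genes). Levels differed by mouse. The list median was -4.24 for mouse 129S1-No1, against -8.16 for C57B6-No1 and -8.51 for 129S1-No2.

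**Figure D2:**
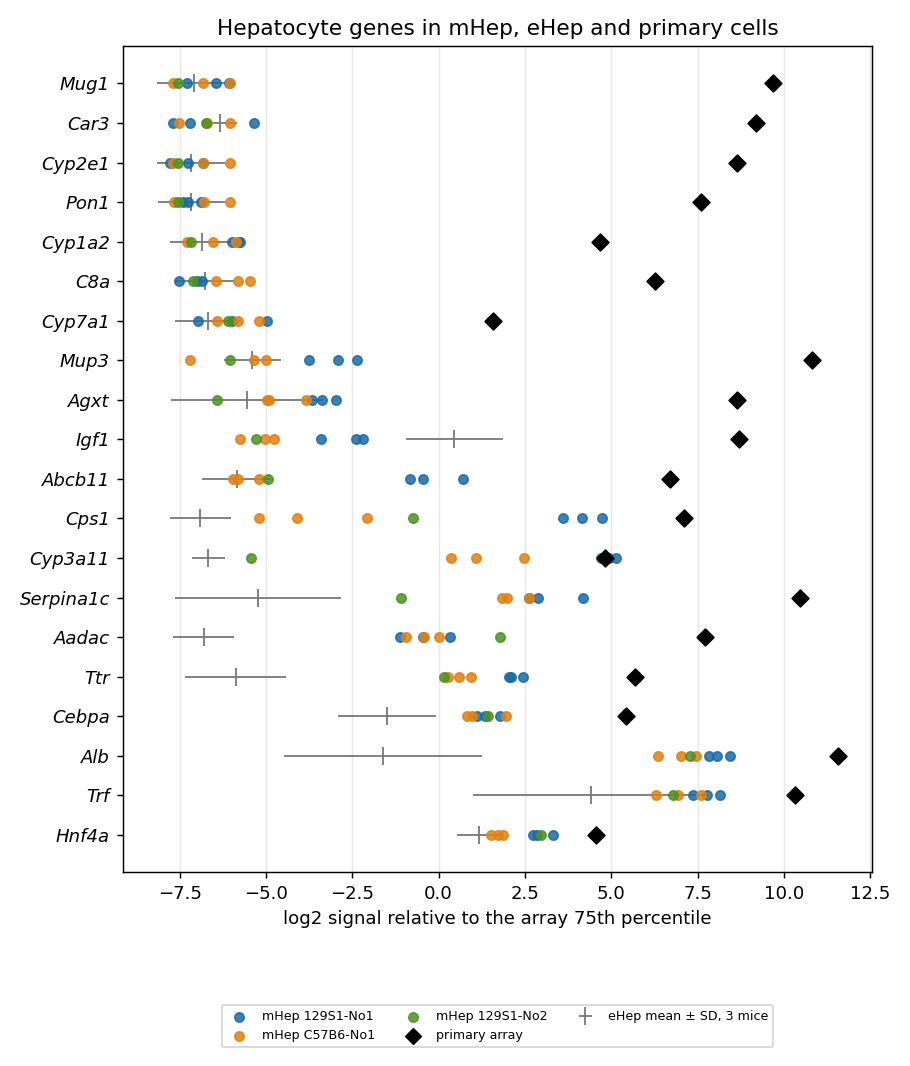
Level of 20 hepatocyte genes on each mHep array (circles, coloured by mouse), in eHep (grey tick and bar, mean ± SD of 3 mice) and on the primary array (black diamond), in log2 units above or below the array's own 75th percentile. From Mug1 to Cyp7a1 the mHep circles lie with eHep, from Abcb11 to Cyp3a11 the 3 blue circles of 129S1-No1 lie apart from the other mice, and for Alb and Hnf4a all circles lie between eHep and primary cells.

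Enzymes of drug metabolism were among the genes furthest from primary cells. Of 32 cytochrome P450 genes tested, 9 were lower, none was higher, the median was -6.05 and 5 were not detected on any mHep array. Cyp3a11, the main drug-oxidising cytochrome of its family, was not called (-4.55 ± 4.09, adjusted p = 0.47). It averaged 4.94 in 129S1-No1 cells, 1.30 in those of C57B6-No1 and -5.43 in those of 129S1-No2, against 4.82 on the primary array. Among flavin monooxygenases and esterases 6 of 19 were lower, with a median of -5.16. The carboxylesterase Ces3b read 10.68 on the primary array and from -7.09 through -4.72 to -1.85 in mHep (-15.36 ± 1.39, adjusted p = 0.0122), and the arylacetamide deacetylase Aadac was at 0.31 ± 1.28 against 7.71 (-7.40 ± 1.08, adjusted p = 0.0289). Aadac had risen from eHep by 7.11 (adjusted p = 0.019, mouse as a block). Of 33 conjugation enzymes 9 were lower, with a median of -3.08, among them Ugt3a2 (-11.30 ± 0.96, adjusted p = 0.0122) and the indolethylamine methyltransferase Inmt (-10.01 ± 1.97, adjusted p = 0.0496).

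Of 30 transporter genes tested 7 were lower and 1 higher (median -4.68). The organic anion carrier Slc22a7 (-12.90 ± 1.38, adjusted p = 0.0149) was among those lower. The bile salt importer Slc10a1, the statin importer Slco1b2 and the bile salt export pump Abcb11 were not called (adjusted p = 0.118, 0.0864 and 0.062). Slc10a1 averaged -0.29 in 129S1-No1 and -6.69 and -7.44 in C57B6-No1 and 129S1-No2, against 4.46 on the primary array, and Abcb11 averaged -0.20, -5.65 and -4.93 in the same mice against 6.72. The 1 carrier that was higher was Abcc4, an exporter of the basolateral membrane, at least 57.9-fold (adjusted p = 0.0115), with 3.07 to 4.51 on the mHep arrays and no detection on the primary array. In bile acid synthesis 8 of 18 genes were lower and 1 higher. Besides Cyp7a1, these included Cyp8b1, which sets the share of cholic acid (-10.76 ± 1.33, adjusted p = 0.0205), and the steroid dehydrogenase Akr1c6 (-14.32 ± 0.47, adjusted p = 0.00829). Cyp39a1, an oxysterol hydroxylase, was higher (3.61 ± 0.69, adjusted p = 0.0466).

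Amino acid breakdown had the most calls of the lists. Of 49 tested genes of the urea cycle and amino acid breakdown 26 were lower and none higher, against 6.38% lower over all genes, and 45 lay under the primary array on all 7 arrays (median -6.80). Hpd, which breaks down tyrosine, read 8.43 on the primary array and -7.38, -5.89 and -1.21 as lowest, median and highest mHep reading (-13.80 ± 1.73, adjusted p = 0.0209). Agxt, which detoxifies glyoxylate, was at -4.78 ± 1.55 against 8.64 (-13.42 ± 1.28, adjusted p = 0.0122), and Bhmt2, a homocysteine methyltransferase, at -5.28 ± 1.23 against 7.36 (-12.64 ± 1.05, adjusted p = 0.0122). Cps1, the entry enzyme of the urea cycle, was not called (adjusted p = 0.182), with 4.16 in 129S1-No1 cells, -3.79 in those of C57B6-No1 and -0.74 in those of 129S1-No2 against 7.09. Uox, the urate oxidase, was lower as well (-12.66 ± 0.98, adjusted p = 0.0122).

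Glucose and lipid genes had fewer calls than amino acid breakdown genes. Of 22 glucose and glycogen genes 3 were lower (median -4.68). The glycogen phosphorylase Pygl was among them (-8.36 ± 0.69, adjusted p = 0.0122). G6pc, which releases glucose, was not called (adjusted p = 0.131), with 4.94 in 129S1-No1 against -0.46 and 1.31 in the other mice and 8.09 in primary cells. In fatty acid oxidation and PPARA targets 10 of 39 were lower and 2 higher (median -2.35), with Acsl1, which activates fatty acids, at -4.92 ± 0.92 (adjusted p = 0.0456) and Bdh1, a ketone body enzyme, at -5.98 ± 0.97 (adjusted p = 0.0354). The 2 that were higher were the pantetheinase Vnn1 (3.41 ± 0.51, adjusted p = 0.0299) and the thioesterase Acot2 (at least 3.98-fold, adjusted p = 0.023). In sterol and fatty acid synthesis 8 of 36 were lower (median -1.97), among them the cholesterol enzyme Dhcr7 (-3.93 ± 0.47, adjusted p = 0.0189), which stayed within 1 unit of eHep. With quantile normalization 2 genes of this list were lower (median -1.27), against 853 of 14709 over all genes. The fatty acid oxidation list then had 3 lower (median -1.23). The authors' deposited table gave the same 2 list counts. In oxidative phosphorylation 2 of 34 were lower, a share near the 6.38% of all genes, and the median was -1.80. With quantile normalization none of these was lower and the median was -0.01. Retinoid and alcohol dehydrogenases held 8 of 27 that were lower, with a median of -2.89, among them Hsd17b6 (-8.29 ± 0.90, adjusted p = 0.0154) and Aldh8a1 (-7.75 ± 1.38, adjusted p = 0.0415). Iron and haem genes held 5 of 19, among them Hamp, the iron hormone hepcidin, at 7.88 on the primary array and -4.28 ± 1.36 in mHep (-12.16 ± 1.14, adjusted p = 0.0122).

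In the growth hormone list, which includes the urinary proteins, 11 of 27 were lower and none higher, and the median was -6.62. Mup3, a major urinary protein gene with close copies that may share its probe, read 10.80 on the primary array and from -7.18 through -5.00 to -2.35 in mHep, where 3 of the 7 arrays detected it (-15.76 ± 1.38, adjusted p = 0.0122). Igf1, the liver's main hormone output under growth hormone, read 8.70 on the primary array and ran from -5.75 through -4.76 to -2.18 in mHep (-13.08 ± 1.24, adjusted p = 0.0122). In eHep it stood at 0.45 ± 1.40, so its mHep level lay under both, although the step from eHep did not pass (-4.83, adjusted p = 0.0826). Ghr, the growth hormone receptor itself, was at 1.71 ± 0.45 against 6.66 (-4.95 ± 0.57, adjusted p = 0.0174).

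Of 37 hepatocyte transcription factors tested, 4 were lower and 1 higher, with a median of -1.91. Hnf4a was not called (-2.01 ± 0.72, adjusted p = 0.134), with 1.51 to 3.30 on the mHep arrays, all under the primary level of 4.55. Cebpa was lower (-4.06 ± 0.45, adjusted p = 0.0163), from 0.83 to 1.97 against 5.42. Nr1i3, the xenobiotic receptor CAR, read 3.22 on the primary array and was detected on 1 mHep array (-8.66 ± 0.68, adjusted p = 0.0122), while its relative Nr1i2, the receptor PXR, was not called (-2.51 ± 0.80, adjusted p = 0.11). Nr0b2, the bile acid repressor SHP, was lower (-7.36 ± 1.099, adjusted p = 0.0301), and so was the oestrogen receptor gene Esr1 (-6.57 ± 1.17, adjusted p = 0.0418). Gata6 was the 1 factor called higher (2.52 ± 0.50, adjusted p = 0.0493), and 1 of its other probes went the other way.

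Genes of both ends of the lobule were lower. Of 21 periportal genes 9 were lower (median -8.26), among them the immunoglobulin carrier Pigr (-10.24 ± 1.35, adjusted p = 0.0231) and Etnppl, a phosphoethanolamine lyase (-10.03 ± 1.15, adjusted p = 0.0172). Of 25 pericentral genes 13 were lower (median -6.44), and 4 of the pericentral genes detected on the primary array were detected on no mHep array, Cyp2e1 and Cyp1a2 among them. Glul, the glutamine synthetase of the last cells before the central vein, was not called (-2.10 ± 0.84, adjusted p = 0.163), with 3.32 to 5.55 against 6.48. Of 18 clock genes 1 was lower, a share near the 6.38% of all genes. It was Npas2 (at least 20.5-fold, adjusted p = 0.0152), detected on no mHep array.

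**Figure D3:**
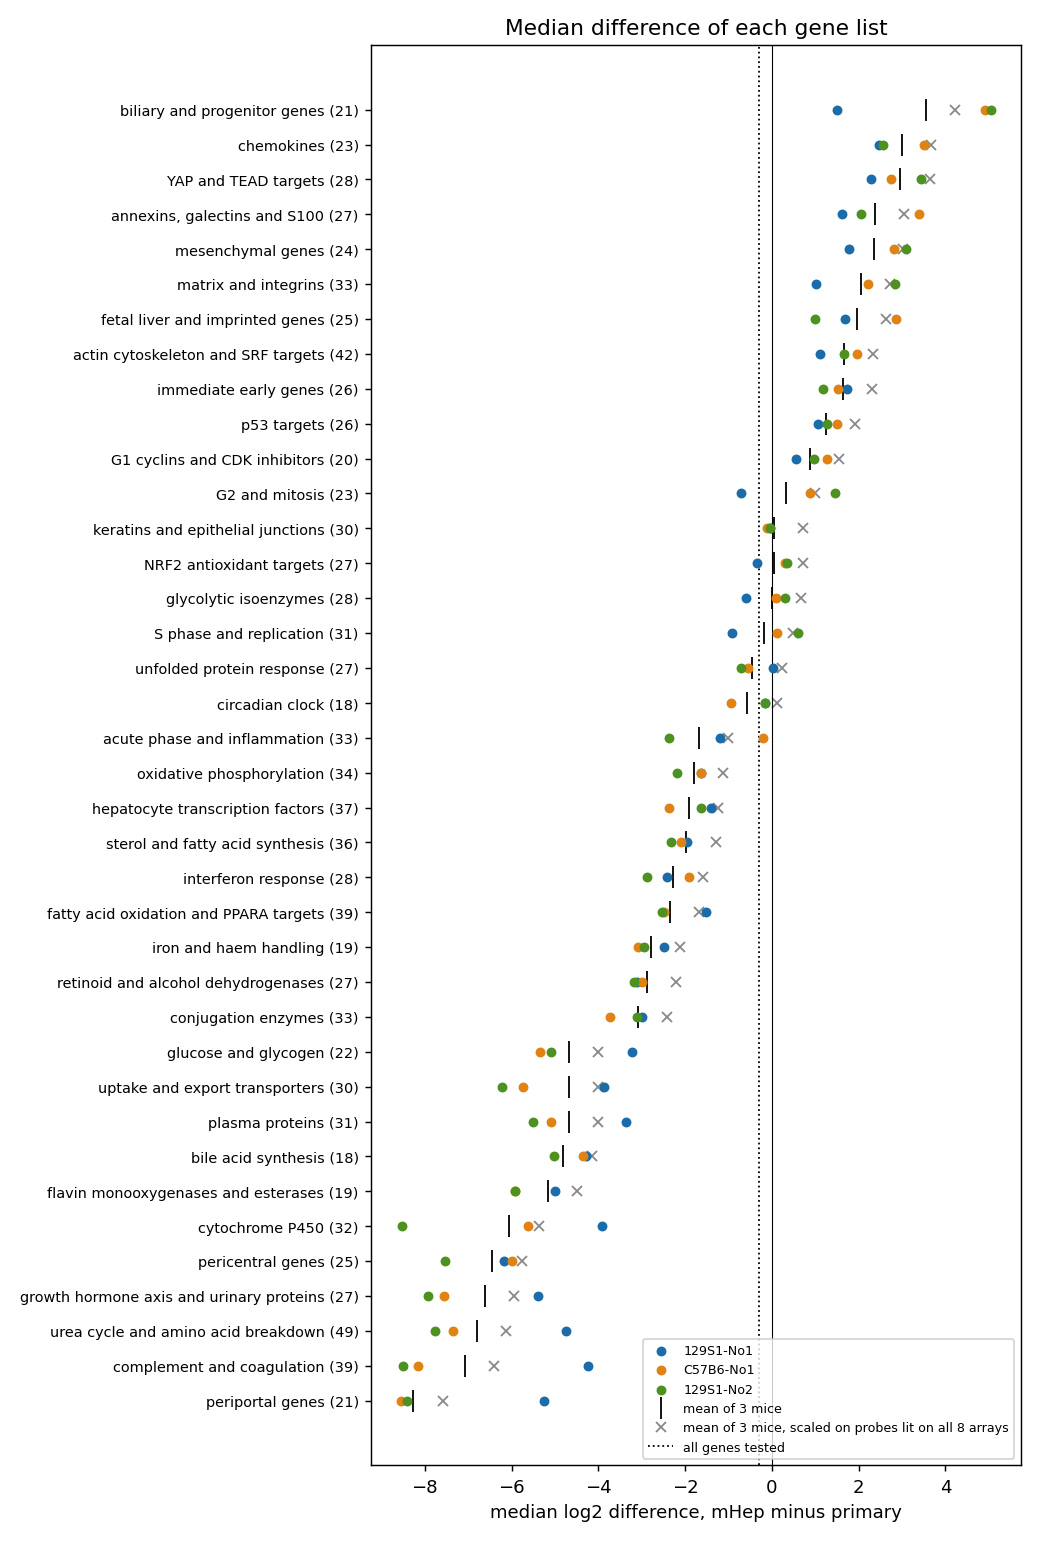
Median difference mHep minus primary of the tested genes of 38 lists (number tested in brackets), in log2 units, for each mouse (coloured points), for the mean of 3 mice (black tick) and for that mean after scaling on probes detected on all 8 arrays (cross). The dotted line is the median of all tested genes at -0.29; liver function lists lie to its left, down to -8.26 for the periportal genes, and biliary genes reach 3.54 on the right.

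The primary RNA also held transcripts of other liver cells. Of 12 tested markers of Kupffer cells, the macrophages of the liver, 8 were lower in mHep and none higher, with a median of -5.77; of the 16 on the array, 11 were detected on the primary array and 9 on at least 1 mHep array. Their summed signal was 4.79 on the primary array and -1.11 to 0.82 on the mHep arrays. Cd5l and Clec4f, both made by Kupffer cells, were at least 306-fold and 70.1-fold lower (adjusted p = 0.0122 and 0.0115). Endothelial markers were lower for 3 of 8 tested, with sums of 4.39 against -0.47 to 0.74, among them Clec4g (-9.09 ± 0.60, adjusted p = 0.0115), and lymphocyte markers for 3 of 4, with sums of 1.05 against -2.93 to -0.61. In bulk RNA fewer cells of a type and less RNA per cell cannot be told apart.

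These markers moved with the interferon and antigen presentation genes, of which 7 of 28 were lower (median -2.27). H2-Ab1, a class II antigen presentation gene, was detected on the primary array (0.19) and on 1 mHep array (-6.38 ± 1.104, adjusted p = 0.0393). The immunoproteasome subunit Psmb9 (-3.79 ± 0.68, adjusted p = 0.0425) and the interferon-induced GTPase Igtp (-3.61 ± 0.48, adjusted p = 0.024) were detected on all 8 arrays. Without 129S1-No2 1 gene of the list was lower and 1 higher. The part of immune cells in these differences was not tested.

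The other face of the comparison was what the differentiation medium left on. On all 7 mHep arrays and not on the primary array 2567 genes (9.39%) were detected, and 1071 of these lay at least 2-fold over the primary array's limit. S100a6, a calcium-binding protein gene, ran from 7.96 through 8.52 to 10.14 in mHep and read -1.70 on the primary array, at least 1343-fold higher (adjusted p = 0.0115). Krt7, the keratin of bile duct cells, ran from 7.05 through 7.55 to 8.74 against a primary reading of -3.96, at least 906-fold higher (adjusted p = 0.0115). The probe of S100a6 (NM_011313) lies on chromosome 3 from 90418160 to 90418219 and that of Krt7 (NM_033073) on chromosome 15 from 101258172 to 101258231. Anxa3, a membrane-binding annexin (at least 772-fold), Ccl2, which draws monocytes (at least 757-fold), the RNA-binding protein gene Bicc1 (at least 468-fold), the desaturase Scd2 (at least 435-fold), the matrix protein gene Efemp1 (at least 430-fold), Anxa1 (at least 365-fold), Anxa13 (at least 352-fold) and the glutathione transferase Mgst2 (at least 330-fold) followed, all with an adjusted p of 0.0115. The mHep levels of these 10 genes lay within 1.598 units of eHep, and none of the steps between the media passed. Another probe of Anxa3 read -4.11 in mHep and -3.95 on the primary array.

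Of 21 biliary and progenitor genes tested 6 were higher and none lower, against 4.41% higher over all genes, with a median of 3.54 (1.502 in 129S1-No1 cells, 4.91 and 5.05 in those of the other mice). Of 11 that had been over primary in eHep, 10 had moved by at most 1 unit toward primary. Besides Krt7 and Anxa13, the surface protein Cd24a was at least 232-fold higher (adjusted p = 0.0115). Krt19, a keratin of bile duct and mesothelial cells, was not called (adjusted p = 0.0607), because the mice differed: 2.69 in 129S1-No1 cells, 7.62 in those of C57B6-No1 and 7.47 in those of 129S1-No2, all detected, against no detection on the primary array. Msln, a mesothelial marker, was at least 293-fold higher (adjusted p = 0.0332) and split by mouse in the same way, with 3.76, 7.54 and 6.93; of the other mesothelial markers Wt1 and Lrrn4 were detected on no mHep array, Gpm6a on 1, Upk3b on 3 and Upk1b on 6, and the part of such cells in these results was not tested. The duct marker Epcam was not called (adjusted p = 0.472). Krt8 and Krt18, the keratins of normal hepatocytes, did not pass, at 8.38 ± 0.35 against 7.87 (0.51 ± 0.52) and 8.67 ± 0.49 against 9.22 (-0.55 ± 0.59, with the sign turned under other scalings). The duct factor Sox9 (-0.56 ± 0.77, adjusted p = 0.636, with the sign turned under another scaling), the cell adhesion gene Cdh1 (1.12 ± 0.95, adjusted p = 0.444) and the contractile actin Acta2 (0.36 ± 0.46, adjusted p = 0.611, with the sign turned when its probes were averaged) did not pass. In the wider list of keratins and junctions 2 of 30 were higher, Krt20 and Tjp1, against 4.41% over all genes.

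Of 28 tested YAP and TEAD targets 9 were higher and none lower, with a median of 2.96. Ccn2 ran from 4.97 through 5.90 to 7.28 and was at least 323-fold higher (adjusted p = 0.0122), Ankrd1 from 4.40 through 5.68 to 6.45 and at least 198-fold (adjusted p = 0.0122), and Myof, a membrane repair protein, at least 152-fold (adjusted p = 0.0115); neither Ccn2 nor Ankrd1 was detected on the primary array. Ccn1 missed the threshold (3.101 ± 0.69, adjusted p = 0.0604) with all 7 arrays, from 3.15 to 4.88, above the primary level of 0.99. The list of actin cytoskeleton genes and SRF targets also holds tubulin genes. In it 11 of 42 were higher and none lower (median 1.66). Among them were the tubulin gene Tuba1a (7.44 ± 0.82, adjusted p = 0.0159) and Ezr, the linker of actin to the membrane (7.10 ± 0.67, adjusted p = 0.0122). Of 24 mesenchymal genes 7 were higher. Cd44, the hyaluronan receptor, was at least 91.4-fold higher (adjusted p = 0.0115), and Vim, the mesenchymal filament, was detected on all 8 arrays and 108-fold higher (6.75 ± 0.60, adjusted p = 0.0122), from 4.14 through 5.32 to 6.28 against -1.46. Of the 15 stellate cell and fibroblast markers 7 were detected on no array of either group, among them Col1a1, Des, Pdgfra, Pdgfrb and Lum, while Dcn, Acta2 and Ecm1 were detected on all 8. Col1a2 and Ngfr were detected on 5 mHep arrays, Rgs5 on 3 and Reln and Col3a1 on 1 each.

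Of 33 matrix genes tested 9 were higher, against 4.41% over all genes. Another 2 were lower, a share near the 6.38% of all genes. With scaling on probes above background on all 8 arrays 9 were higher and none lower. Timp2, an inhibitor of matrix proteases, ran from 6.03 through 7.25 to 8.21 against -1.63 (8.75 ± 0.67, adjusted p = 0.0122). Among genes called higher and detected in both groups its difference was the largest, with clones and predicted genes left aside. Its relative Timp1 was higher too (4.65 ± 0.64, adjusted p = 0.0259). The 2 that were lower were Col18a1 (-3.01 ± 0.50, adjusted p = 0.0373) and Col1a2 (-3.59 ± 0.68, adjusted p = 0.0462). Annexins, galectins and S100 genes were higher for 9 of 27, including Anxa2 (6.61 ± 0.64, adjusted p = 0.0125) and Lgals3 (6.45 ± 0.47, adjusted p = 0.0115), and lower for Lgals9 (-2.49 ± 0.48, adjusted p = 0.0472).

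**Figure D4:**
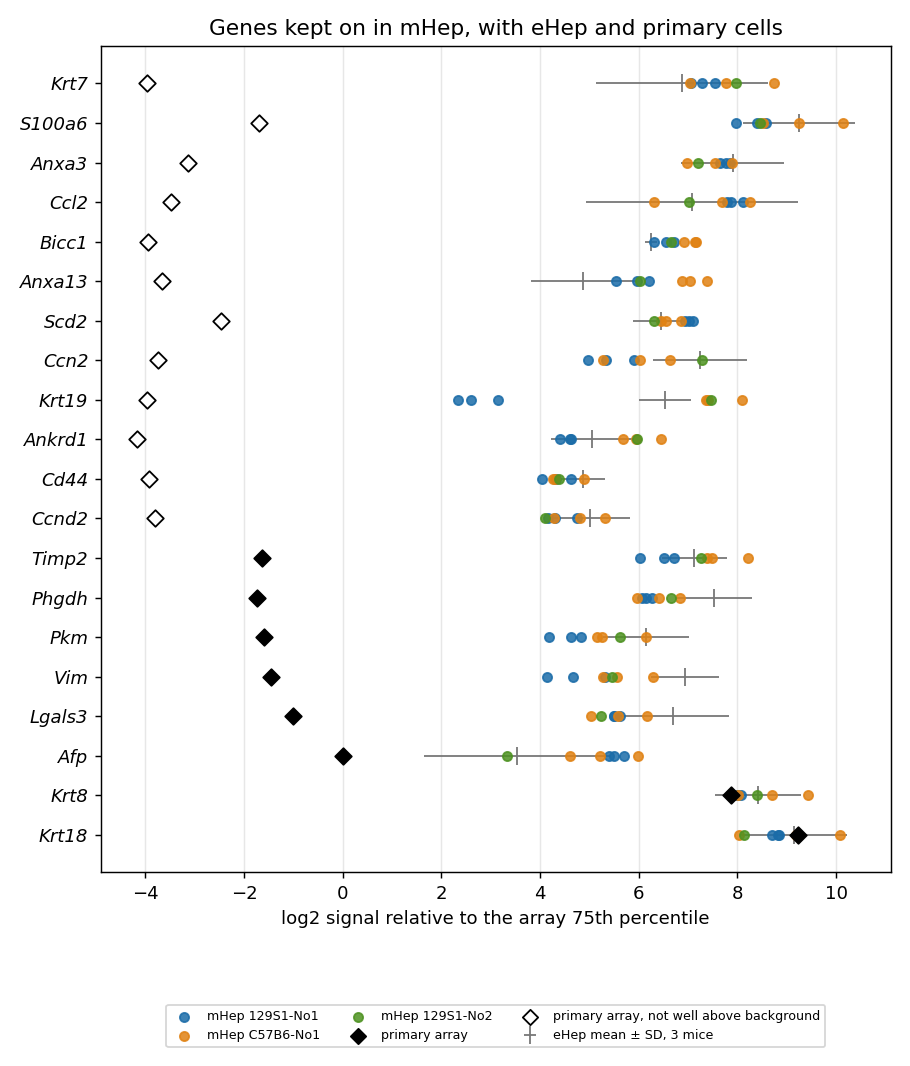
Level of 20 genes on each mHep array (circles, coloured by mouse), in eHep (grey tick and bar, mean ± SD of 3 mice) and on the primary array (diamond, open where not detected), in log2 units above or below the array's own 75th percentile. From Krt7 to Lgals3 every mHep array lies to the right of the primary array, Krt19 splits by mouse, and Krt8 and Krt18 overlap the primary array.

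Of 23 chemokine and related genes 10 were higher and 3 lower. Ccl20 (at least 188-fold, adjusted p = 0.0146) and Cxcl5 (at least 215-fold, adjusted p = 0.0234) were higher beside Ccl2 and were not detected on the primary array. The 3 that were lower, Cxcl14, Cxcl9 and Cxcl11, were detected on the primary array beside the immune and endothelial markers above. In the acute phase list 4 of 33 were lower and 4 higher. Orm2 (-6.14 ± 1.18, adjusted p = 0.0477) and Apcs (-5.64 ± 0.85, adjusted p = 0.0307), both secreted by hepatocytes, were lower, while the endotoxin receptor Cd14 (6.96 ± 0.84, adjusted p = 0.0193), the NF-κB brake Tnfaip3 (at least 61.3-fold, adjusted p = 0.0122) and the adhesion molecule Vcam1 (at least 43.7-fold, adjusted p = 0.0287) were higher. Saa1, serum amyloid A, was not called, at 8.25 ± 1.08 against 11.78 (adjusted p = 0.0839), and neither was Lcn2, at 7.61 ± 0.79 against 6.79 (adjusted p = 0.481). Immediate early genes were higher for 9 of 26, among them Klf6 (7.04 ± 0.48, adjusted p = 0.0115), and lower for Zfp36 (-3.70 ± 0.52, adjusted p = 0.0264).

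Among metabolic enzymes, Pkm, the pyruvate kinase gene of muscle and growing tissue, was 114-fold higher (6.84 ± 0.64, adjusted p = 0.0122), from 4.19 through 5.16 to 6.15 against -1.60, and the hexokinases Hk1 and Hk2 were at least 89.4-fold and 18.6-fold higher (adjusted p = 0.0122 and 0.0362). The probes of Hk1 disagreed: another one was detected on all 8 arrays and read -0.73 in mHep against 0.44 on the primary array. In the list of glycolytic isoenzymes 4 of 28 were higher and 1 was lower, with a median of 0.01. Phgdh, the first enzyme of serine synthesis, ran from 5.96 through 6.27 to 6.84 against -1.74 (8.14 ± 0.49, adjusted p = 0.0115), and Psat1, the next enzyme, was higher as well (5.35 ± 0.59, adjusted p = 0.0156). Both stand in the unfolded protein response list as ATF4 targets, where 5 of 27 were higher, Mthfd2 among them (at least 18.9-fold, adjusted p = 0.0342), and 4 were lower. The lower ones included the endoplasmic reticulum chaperones Sdf2l1 (-4.09 ± 0.64, adjusted p = 0.0329), Hyou1 (-3.06 ± 0.51, adjusted p = 0.0375) and Pdia4 (-2.995 ± 0.45, adjusted p = 0.0301). Among NRF2 targets 3 of 27 were higher, the aldo-keto reductases Akr1b8 (6.24 ± 0.92, adjusted p = 0.0298) and Akr1b10 (5.25 ± 0.92, adjusted p = 0.04) and Abcc4, while Nqo1 was not called (adjusted p = 0.21).

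Of 25 fetal and imprinted genes 5 were higher, including the growth receptor adaptor Grb10 (4.54 ± 0.69, adjusted p = 0.031) and Tspan8 (at least 89.5-fold, adjusted p = 0.0115), and 1 was lower, Mest (at least 30.1-fold, adjusted p = 0.0122). Afp, the fetal counterpart of albumin, missed the threshold (4.71 ± 1.03, adjusted p = 0.0591) with all 7 arrays, from 3.33 to 5.98, above the primary level of 0.00. H19, a fetal imprinted RNA, was not called (1.12 ± 1.12, adjusted p = 0.514), was not detected on the primary array, and its sign turned with normexp background. Of 20 G1 cyclins and inhibitors 1 was higher, a share near the 4.41% of all genes: Ccnd2 (at least 94-fold, adjusted p = 0.0115), while Ccnd1 (adjusted p = 0.287) and Cdkn1a (adjusted p = 0.0698) were not called. Targets of p53 were higher for 6 of 26, among them Phlda3 (at least 203-fold, adjusted p = 0.0122), Pmaip1 (at least 62-fold, adjusted p = 0.0115) and Gadd45a (3.30 ± 0.47, adjusted p = 0.028).

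Mitotic genes, high in eHep, were not called against primary cells. Of 23 G2 and mitosis genes tested none passed in limma in either direction, and 5 had an unadjusted p under 0.05. In the authors' deposited table, and with quantile normalization, 4 were higher, and with slide as a random block 9 were higher and 2 lower. The median was 0.33, which turned to -0.32 under another background correction, and by mouse it was -0.71 in 129S1-No1 cells and 0.87 and 1.45 in those of C57B6-No1 and 129S1-No2. Of 21 that lay at least 2 units over primary in eHep, 13 lay in mHep within 1 unit of primary and 8 between. The primary array detected 10 of the 30 genes of the list. Aurkb, Bub1b, Ccnb1, Hmmr and Kif23, all within 1 unit, read there under its lowest detected signal of -2.12. For such genes a return to the primary level was not measured. Plk1, a mitotic kinase, was at 0.09 ± 0.79 in mHep and -0.14 in primary cells, after 3.20 ± 0.91 in eHep. Aurka, another mitotic kinase, was at -0.34 ± 0.66, 0.18 and 2.86 ± 0.99 in the same order, and the survivin gene Birc5 at 1.69 ± 1.04, 1.38 and 4.81 ± 0.70. These 3 were picked after their values were seen, and all were detected on the primary array. Mki67, the proliferation marker, was not called (adjusted p = 0.11) and was detected on all 7 mHep arrays. In S phase genes 1 of 31 was called, against 6.38% lower over all genes. It was Mcm10, lower by 7.60 (± 0.47, adjusted p = 0.0115), with 6.37 on the primary array, on a gene with 1 probe.

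How far the medium moved each gene was read from its place between eHep and primary cells. Of 2644 genes at least 2 units under primary in eHep, 79 (2.99%) lay in mHep within 1 unit of primary or past it, 749 (28.3%) between, and 1816 (68.7%) had moved by at most 1 unit toward primary. Of 1965 genes at least 2 units over primary in eHep, 151 (7.68%) were at primary, 344 (17.5%) between and 1470 (74.8%) had moved by at most 1 unit toward primary, the class called at eHep. These classes have no test and share the primary array and the mHep means. Genes over primary in eHep include some not detected on the primary array, whose primary level is a dim reading. Without 129S1-No2 they held 86, 679 and 1500 genes on the low side and 202, 482 and 1189 on the high side. In the separate test of the media with mouse as a block, 204 of 14579 genes (1.4%) were higher in mHep than in eHep and 64 (0.439%) lower. Of the 938 genes called lower than primary, 34 had also risen from eHep, and 754 had moved by at most 1 unit toward primary from an eHep level at least 2 units under it.

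The lists filled these classes unevenly. Among plasma proteins 29 of 30 genes that were under primary in eHep lay between and 1 at eHep, and among glucose and glycogen genes 19 of 20 lay between. Among pericentral genes 12 of 19 and among sterol and fatty acid synthesis genes 18 of 24 were in the class at eHep, as were 9 of 9 oxidative phosphorylation genes. Of genes over primary in eHep, the same class held 17 of 21 in the actin and SRF list, 15 of 19 matrix genes, 12 of 13 chemokines and 10 of 11 biliary genes. Of the genes at primary, Sult1a1, a sulfotransferase, had gone from -1.39 ± 2.56 in eHep to 7.14 ± 1.13 in mHep against 7.59 in primary cells (rise of 8.52, adjusted p = 0.00454), and the bile acid receptor Nr1h4 from 1.07 ± 0.57 to 4.25 ± 0.45 against 5.06 (rise of 3.18, adjusted p = 0.0379). The nuclear receptor Rora was at 0.19 ± 0.60 against 0.62 (rise of 3.35 from eHep, adjusted p = 0.0216). The endotoxin-binding protein gene Lbp was at 5.70 ± 1.08 against 6.23 and Cyp3a13 at 5.69 ± 0.14 against 6.09, and their steps from eHep did not pass (adjusted p = 0.131 and 0.243). These 5 were picked after their values were seen.

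**Figure D5:**
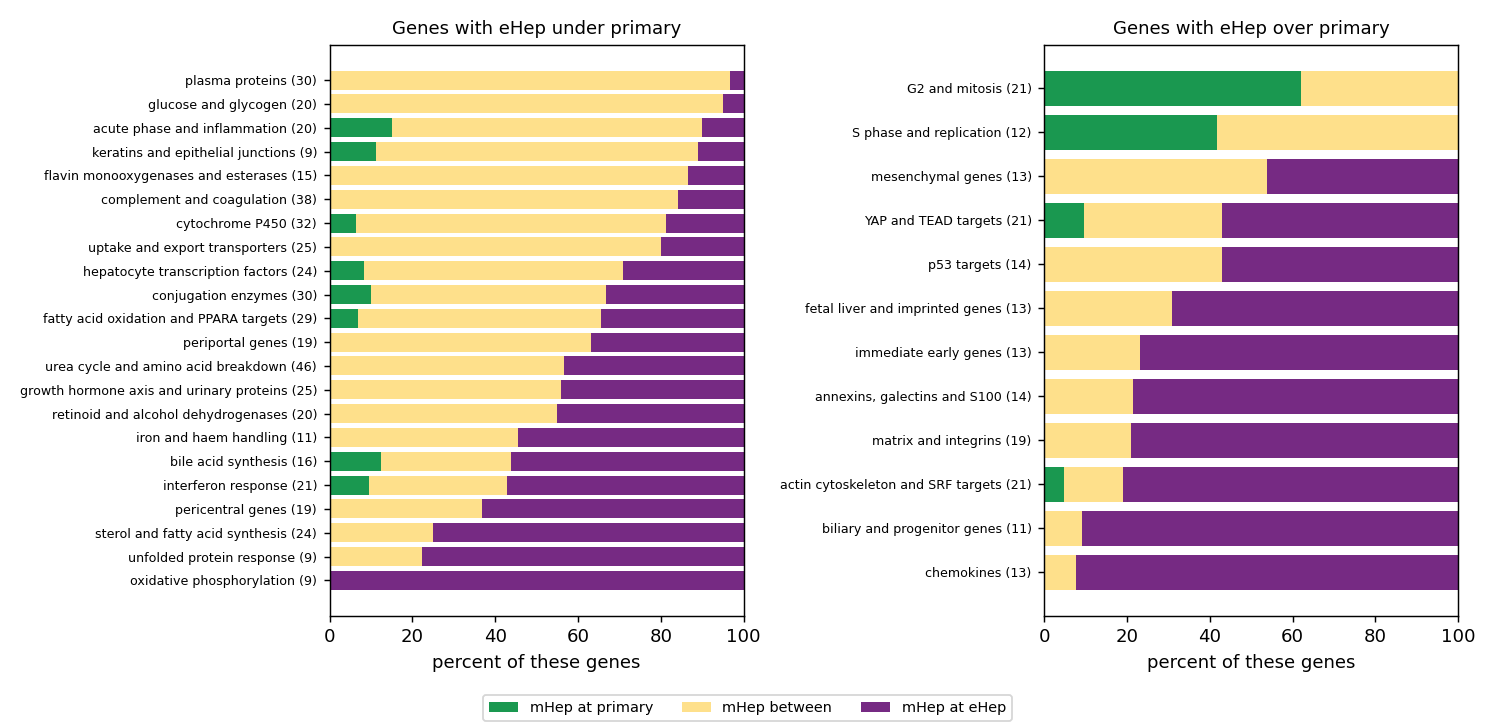
Share of genes in each class, in percent, for lists with at least 9 such genes (number in brackets): genes at least 2 log2 units under primary in eHep (left) and over primary in eHep (right), with mHep within 1 unit of primary (green), between (yellow) or moved by at most 1 unit from eHep toward primary (purple). Green is widest for G2 and mitosis, 13 of 21 genes, some of them not detected on the primary array. Purple fills the bars of oxidative phosphorylation (9 of 9) and most of chemokines (12 of 13).

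The mice had not come equally far. Of the 2644 genes under primary in eHep, 191 (7.22%) lay within 1 unit of primary in 129S1-No1, in C57B6-No1 118 (4.46%) did, and in 129S1-No2 126 (4.77%), and the median distance left was 2.90, 3.20 and 3.62. Of the 1965 genes over primary, 326 (16.6%), 124 (6.31%) and 195 (9.92%) lay within 1 unit. Cps1, Cyp3a11, G6pc, Abcb11 and Slc10a1 were each highest in 129S1-No1, and Krt19, Msln and Ccnd1 were each lowest there. For Ccnd1 the means were 1.12, 4.60 and 3.86, against 0.66 in primary cells. Gpc3, a fetal liver gene, ranged from -7.12 to 2.62 over the mHep arrays (adjusted p = 0.799), and the cell cycle inhibitor Cdkn2a from -6.81 to 2.04 (adjusted p = 0.643). The difference between mice was not tested. All 129S1-No1 arrays lay in the scan session that did not hold the primary array, and the strain of the primary cells was that of C57B6-No1.

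Some genes stood in mHep at a level seen in neither reference. Of the 649 genes called higher than primary, 8 had risen from eHep as well, and all 8 were not detected on the primary array: Cd36, Cyp2c65, Cyp2c66, Adamts15, Eps8l3, Prr15l, Rasal1 and Sema6d, named here after their values were seen. Other probes of Prr15l (-1.15, detected on 3 mHep arrays) and Sema6d (-0.35, detected on 5) went the other way against primary. Cd36, a fatty acid receptor, ran from 2.75 to 4.94 on the mHep arrays and was detected on none of the 7 eHep arrays. It was at least 69.5-fold higher than on the primary array (adjusted p = 0.0122) and rose from eHep (10.73 ± 0.48, adjusted p = 0.00159). Cyp2c65 and Cyp2c66, cytochromes known from the intestine, were at least 15.1-fold and 8.18-fold higher than primary (adjusted p = 0.0431 and 0.0487), and their sequences are close enough that a probe may read both. In the other direction, of the genes called lower, 2 had also fallen from eHep, the chemokine Ccl6 and the cyclin Ccnf.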

How the data were processed

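Each sample is a 1-colour Agilent array, and the deposited intensity per probe is the background-subtracted and detrended signal that Feature Extraction 10.7.1.1 or 10.7.3.1 gave, per the file headers. The deposited value table of the authors holds log2 values whose scaling method is not given in the sources used here; it served as an alternative. Probe positions are mm9, per the file headers. Here log2 signals were scaled to the 75th percentile of non-control probes. Arrays of a mouse were averaged, and limma 3.58.1 in R 4.3.3 compared 3 mouse means with 1 primary array (Benjamini-Hochberg adjusted p under 0.05, log2 difference of at least 1). Genes had to be above background on the primary array or on every mHep array of at least 2 mice to be tested, and 14709 of 27338 were. A gene with several probes is given by 1 of them, the one with the highest mean level over the 8 arrays, 7 of which are mHep. Of 61 described genes with several probes above background, 51 had all probes in the same direction. With the mean of all probes 1062 genes were lower and 481 higher, and 1329 of the 1587 calls remained. mHep was compared with eHep with mouse as a block, since the labels tie both media to the same animal; deviations of the same mouse correlated at 0.378, 0.54 and 0.528 and those of different mice at 0.0269 or less.

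Genes were named by rule: the 12 largest differences per direction among genes detected in both groups and alike on all 7 arrays, the 10 largest bounds per direction, up to 3 called genes of each list per direction, and 48 chosen markers; not all of these 177 are described, and some results are not reported here. The members, lists and markers were chosen with earlier results of these data known. Figures were drawn with matplotlib 3.10.9. Promoters come from RefSeq, GRCm38.p6. The procedure was tested on simulated data. Alternatives covered scaling, background, filters, probes, moderation, slide, scan and each mouse left out.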

Additional observations from a re-analysis of the deposited data

Results flagged for a closer look

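Among the 187 genes examined array by array, 6 had 1 mHep array whose gap to the nearest of the other 6 took up more of the range than Dixon's 95% critical value for 7 samples. Chance flags about 1 in 20 groups of 7 independent samples. These 7 arrays came from 3 mice, so that rate may not hold here. On the array of 129S1-No2, Mug2, a relative of Mug1, read -7.32 (nearest -5.62), Nr1i3 read -4.673 (nearest -5.458), Cdkn2a read -6.815 (nearest 0.0461) and Cyp2c65 read 0.3236 (nearest 1.979). Zfp36 read 0.5665 on C57B6-No1 array 2 (nearest 1.485), and Acta2 read 4.842 on C57B6-No1 array 1 (nearest 4.151).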

How the results depend on the processing

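Main counts were 938 lower and 649 higher genes. The slide block, C57B6-No1 and scan session fits given next took arrays, not mice, as samples. With no filter on dim genes they were 10451 and 1455, with trended robust moderation 1471 lower, with 7 arrays as samples 2260 and 1549, with slide as a random block 4975 and 3014, with C57B6-No1 alone 2016 and 1588, and within the scan session of the primary array 2837 and 1744. The higher genes numbered 1559 with quantile normalization, 1320 with scaling on probes above background on all 8 arrays, 383 with normexp background, 1561 in the value table of the authors and 379 among genes above background on all 8 arrays. Leaving out 1 mouse gave 0 to 1473 lower and 0 to 1062 higher genes, with 0 without C57B6-No1. Quantile normalization put 2685 genes under all 7 mHep arrays on the primary array, 120 genes at primary from below, and 548 between and 2280 at eHep from above; without 1 mouse, 86 to 126 were at primary from below. The cause of these shifts was not tested.

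mHep against eHep gave 204 higher and 64 lower genes with the mouse block, 2 and 0 without that block, and 95 and 15 with quantile normalization.

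Signs turned for Krt18 (1.582 with quantile normalization, 0.1274 with scaling on probes above background throughout, 0.02967 with normexp, 1.561 in the authors' table), Sox9 (0.1154 with that scaling, 0.08008 with the slide block, 0.3582 in C57B6-No1 alone), Acta2 (-1.584 as the mean of its probes), H19 (-0.9162 with normexp, -1.155 with readings raised to the background limit) and Sema6d (-0.04067 as the mean of its probes).

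Limits: the primary side is 1 dim array, so low genes there have bounds only. Isolation, made once, cannot be told apart from the cell state. C57B6-No1 has the strain of the primary cells. A fit on that mouse alone takes its 3 arrays as replicates and reuses data behind the calls. It is therefore no separate check of strain or isolation. Genes of close families (Mup, Mug, Serpina1, Saa, Cyp2c) are uncertain, since their copies are alike.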
